A study of Mus musculus with 38 samples.

Results

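The clustered protocadherin genes of the mouse were followed here through maps of the nuclear lamina in embryonic stem cells. Their members were the protein-coding genes whose symbol is Pcdha, Pcdhac, Pcdhb, Pcdhga, Pcdhgb or Pcdhgc followed by a number, and 58 of the 78202 genes in the tables met that rule. They comprised 12 Pcdha genes, 2 Pcdhac genes, 22 Pcdhb genes, 12 Pcdhga genes, 7 Pcdhgb genes and 3 Pcdhgc genes. On GRCm39 all 58 lay on the plus strand of chromosome 18 within 911.778 kb (chr18:37063237-37975014). The alpha cluster of 14 members came first (chr18:37063237-37320716), the beta cluster of 22 followed (chr18:37397991-37657532), and the gamma cluster of 22 came last (chr18:37794846-37975014).

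The study profiled contacts between chromatin and the nuclear lamina by CUT&RUN, in which an antibody directs a nuclease to a chromatin protein and the released DNA is sequenced. LAP2B was mapped in 24 libraries, with 3 replicates in each of 8 groups that crossed naive mESCs and EpiLCs with the genotypes WT, LBRKO, TKO and QKO. LMNB1 and the IGG background were mapped in 6 WT libraries each, 3 per stage, so neither was measured in a knockout. The paper reports that LAP2B signal in WT EpiLCs, set against lamin B1, fell outside lamina-associated domains as well as inside them. Its own work on mutant EpiLCs used a histone mark instead. EpiLC values are therefore given here as LAP2B signal, and how far they reflect lamina contact was not tested. The 2 H3K9me3 samples were not analysed here. All groups were cultures of mouse embryonic stem cells. Naive cells grew in 2i + LIF (CHIR-99021, PD0325901 and LIF), and EpiLCs, the primed counterpart, were made from them with FGF and activin A.

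The genotype labels stand for intact cells (WT), LBR knockout (LBRKO), lamins triple knockout (TKO) and lamins plus LBR quadruple knockout (QKO). WT and TKO were littermate lines, LBRKO clones were derived from WT cells, and QKO was a single clone derived from the TKO cells, so the QKO and TKO groups share every lamin deletion. The Lbr alleles of that clone carry a frameshift deletion and an in-frame deletion. The paper reports LBR depletion in its knockouts by western blotting, and no detectable LBR by immunostaining. TKO cells were trisomic for chromosome 8, and the WT cells held sub-populations of abnormal karyotype as well. Replicates were separate samples of a line, so p-values measure the spread between libraries and not between clones. CUT&RUN reads DNA, so neither the loss of the deleted proteins nor cell type marker transcripts could be checked in these files.

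Clustered protocadherins are cadherin-like adhesion proteins best known from neurons, where each cell displays its own combination and uses it to tell its own branches from those of others. In the alpha and gamma clusters each variable exon has its own promoter and is spliced to constant exons shared by the whole cluster, whereas beta genes consist of a single exon. Promoter choice is random for most members and depends on CTCF and cohesin, while the C-type genes (Pcdhac1, Pcdhac2, Pcdhgc3, Pcdhgc4 and Pcdhgc5) are used more broadly. LAP2B is a protein of the inner nuclear membrane encoded by Tmpo. LMNB1 is a B-type lamin beneath that membrane, and LBR is a membrane receptor that binds both lamins and heterochromatin.

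This architecture set how the values could be read. The deposited value of a gene was read as a total over every 1 kb bin it overlaps, which was inferred from the values since the step is not given in the sources used here. Every canonical alpha and gamma transcript had 4 exons, and the last 3 were common to all 14 alpha or all 22 gamma members. The alpha constant exons lay at chr18:37289208-37289266, chr18:37292318-37292406 and chr18:37317999-37320716. The gamma constant exons lay at chr18:37958074-37958132, chr18:37966318-37966406 and chr18:37972956-37975014. Pcdha1, whose first exon opens the alpha cluster, therefore spanned 258 bins that held all other alpha members, and Pcdhga1 spanned 182 bins that held all other gamma members. Values of overlapping members are not independent of each other.

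Counts of changes were therefore taken over 49 units that share no bin. These were 14 beta genes, the last genes Pcdhac2 and Pcdhgc5 with their constant exons, and 33 stretches, each running from the start of 1 alpha or gamma member to the start of the next. The units comprised 14 in alpha, 14 in beta and 21 in gamma. In the beta cluster 8 members shared a bin with a neighbouring beta gene (Pcdhb9 with Pcdhb10, Pcdhb17 with Pcdhb18, Pcdhb19 with Pcdhb20 and Pcdhb21 with Pcdhb22) and were kept out of the units. Pcdhgb8 had no stretch of its own, and the stretch of Pcdhga11 runs past it to the start of Pcdhga12. All 58 members and all 49 units passed the filter on low values.

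Levels are given as the relative value per bin, which is the deposited value divided by the median gene of its library and by the number of bins. Changes are log2 differences of relative values from a limma model over all 70414 features, with Benjamini-Hochberg adjusted p, and the threshold for a call was an adjusted p below 0.05. Shares of all features called belong to the main fits. They were not counted under other scalings or with libraries left out. The gene tables held 12608484 to 41198406 reads in the LAP2B libraries, 29522895 to 37189077 with LMNB1 and 12028659 to 45689196 with IGG, where a read in overlapping genes counts once for each gene. A unit held 14 to 2355 reads in a LAP2B library, with a median of 87.5. The reads of replicates differed beyond counting noise in all 36 pairs (chi-square per degree of freedom 3.41 to 12.9), so no library appeared to have been deposited more than once. The stretch of Pcdha7 had low values with every antibody, IGG included. The reason was not tested, so its low level is not read as low contact.

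In relative value, the alpha and beta clusters of WT cells lay above the IGG background with LMNB1 and the gamma cluster lay below it. In naive cells the mean LMNB1 value per bin was 0.247 ± 0.0288 over alpha, 0.255 ± 0.0153 over beta and 0.151 ± 0.0139 over gamma (SD, n = 3). The corresponding IGG values were 0.170 ± 0.0107, 0.194 ± 0.0153 and 0.211 ± 0.0129 (SD, n = 3). The 3 tables were normalised apart, so their levels are set side by side without a test. Counted by unit, the naive LMNB1 mean exceeded the IGG mean in 12 of 14 alpha units, 12 of 14 beta units and 2 of 21 gamma units.

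LAP2B gave the same order in WT cells with smaller margins. Naive means per bin were 0.210 ± 0.00976 over alpha, 0.231 ± 0.0142 over beta and 0.158 ± 0.0131 over gamma (SD, n = 3), and 10 alpha, 9 beta and 1 gamma units lay above IGG. In EpiLCs the LAP2B means were 0.210 ± 0.00471, 0.238 ± 0.00771 and 0.188 ± 0.0134 (SD, n = 3), with 8 alpha, 8 beta and 1 gamma units above IGG. Ranked per bin among 20853 protein-coding genes, the median unit of naive WT cells stood at percentile 53.1 in alpha, 68.9 in beta and 34.7 in gamma. The highest-ranked unit was Pcdhb1, the first beta gene, at percentile 94.9 ± 4.35 in naive and 98.3 ± 1.82 in EpiLC libraries (SD, n = 3).

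**Figure D1:**
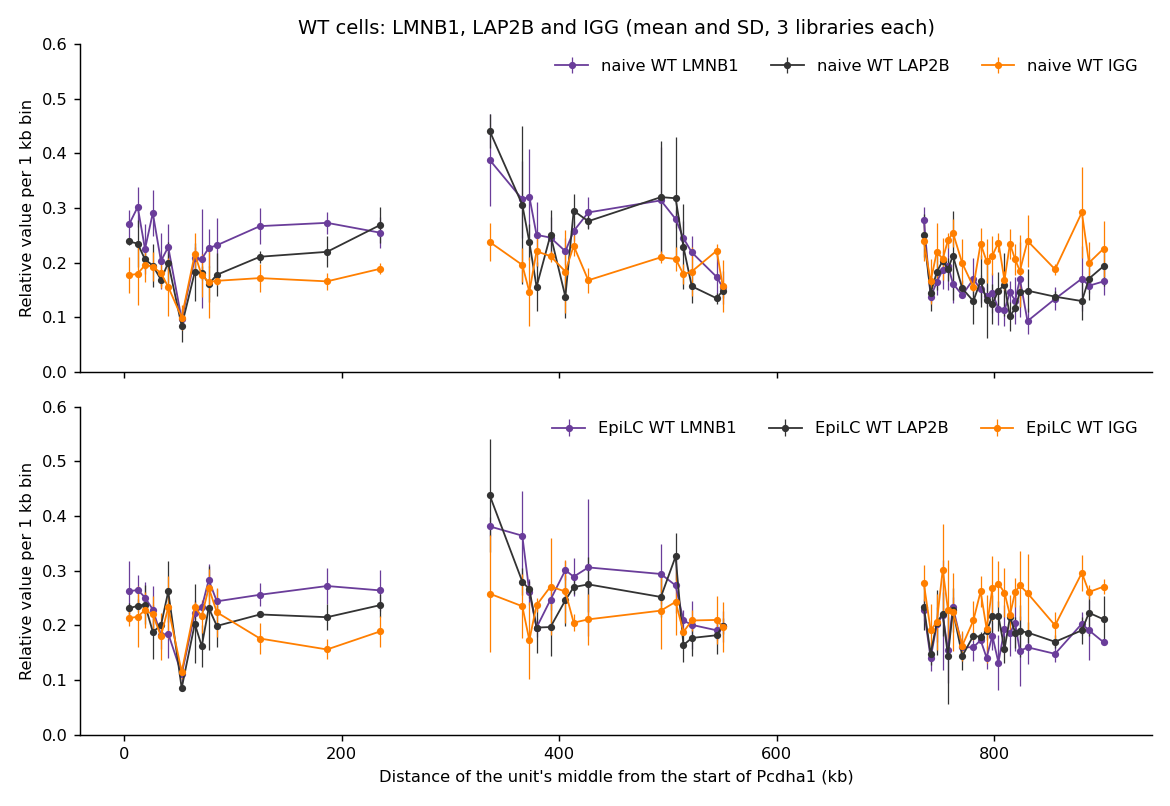
Relative value per 1 kb bin of the 49 units in WT cells with LMNB1, LAP2B and IGG, in naive cells and EpiLCs, plotted in order along the 3 clusters. Most alpha and beta units lie above IGG with LMNB1 (12 of 14 each in naive cells), whereas 2 of 21 gamma units do.

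The naive QKO cells showed the widest separation of the clusters. LAP2B rose over the gamma cluster and fell over the alpha cluster and much of the beta cluster. Mean values per bin went from 0.158 ± 0.0131 in WT to 0.420 ± 0.0559 in QKO over gamma, from 0.210 ± 0.00976 to 0.108 ± 0.00944 over alpha and from 0.231 ± 0.0142 to 0.135 ± 0.0205 over beta (SD, n = 3). In relative value the QKO alpha and beta means were below the WT IGG means given above and the QKO gamma mean was above its own. This order depends on the scale. Pcdha1, which spans alpha, had a deposited mean of 28.4 ± 0.217 in naive QKO and 23.6 ± 5.29 with naive WT IGG (SD, n = 3).

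Of the gamma units, 17 of 21 were called higher in naive QKO than in WT and none lower, where 33.2% of all features tested were called higher and 42.3% lower. All 21 gamma changes were positive, with a median of 0.90 against -0.22 over all features and -0.41 over the 1979 genes of chromosome 18. In alpha, 9 of 14 units were called lower and none higher, with a median of -0.57. In beta, 8 of 14 units were called lower and none higher, with a median of -0.83. As 42.3% of all features were called lower, the alpha and beta counts are to be read against that share. With libraries divided by their mean over genes, the counts over all 49 units went from 17 higher and 17 lower (50% higher) to 20 higher and 12 lower (62.5%). Taken as deposited, with overlap, all 22 gamma members were called higher, all 14 alpha members lower and 9 of 22 beta members lower.

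The rise was steepest at the 3' end of the gamma cluster. The 3 largest increases belonged to the C-type genes at that end. Pcdhgc5 (ENSMUSG00000102543, chr18:37952510-37975014), the last member, had values per bin of 0.235, 0.169 and 0.179 in the naive WT libraries. Its values in naive QKO were 1.09, 0.806 and 1.07. The groups did not overlap and the change was 2.33 ± 0.14 (log2 ± SE, limma adjusted p = 5.44e-21). Its rank went from percentile 54.0 ± 12.0 to 97.0 ± 0.418 (SD, n = 3). Lack of overlap was common, as 33.5% of all features lay wholly above WT in naive QKO and 41.9% wholly below. These shares were 28.9% and 28.5% in naive LBRKO and 21.8% and 29.3% in naive TKO. In EpiLCs they were 25.3% and 24.2% in QKO, 19.2% and 17.6% in TKO, and 20.6% and 17.9% in LBRKO.

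The stretches of Pcdhgc3 and Pcdhgc4, the other C-type gamma genes, changed by 2.27 ± 0.20 (limma adjusted p = 8.3e-15) and 1.67 ± 0.26 (limma adjusted p = 1.08e-07). With IGG in naive WT cells these stretches ranked at percentiles 80.0 ± 23.1 and 45.6 ± 21.9, and Pcdhgc5 at 60.4 ± 23.7 (SD, n = 3). The median gamma unit stood at 52.9 there. IGG was not measured in QKO, and the part of background in these changes was not tested. At the other end, the stretch of Pcdhga1, the first gamma gene, changed by 0.13 ± 0.21 (limma adjusted p = 0.575). Across the 21 gamma units the Spearman correlation of the naive QKO change with position was 0.79. This describes neighbouring units of the same libraries and carries no test. The gamma stretches not called were those of Pcdhga1, Pcdhga5, Pcdhga9 and Pcdhgb7.

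Pcdhga1 as deposited (ENSMUSG00000103144, chr18:37794846-37975014) sums the whole gamma cluster. It had 0.162, 0.144 and 0.169 per bin in naive WT libraries and 0.457, 0.355 and 0.447 in naive QKO. Every QKO library lay above every WT library, a change of 1.40 ± 0.10 (limma adjusted p = 1.81e-18). The last Pcdhga gene, Pcdhga12, changed by 1.89 ± 0.11, and the first and last Pcdhgb genes, Pcdhgb1 and Pcdhgb8, by 1.5 ± 0.10 and 1.88 ± 0.11. These deposited values also take in the Pcdhgc genes downstream, and the stretches of Pcdhga12 and Pcdhgb1 without them changed by 1.25 ± 0.13 and 0.58 ± 0.22.

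**Figure D2:**
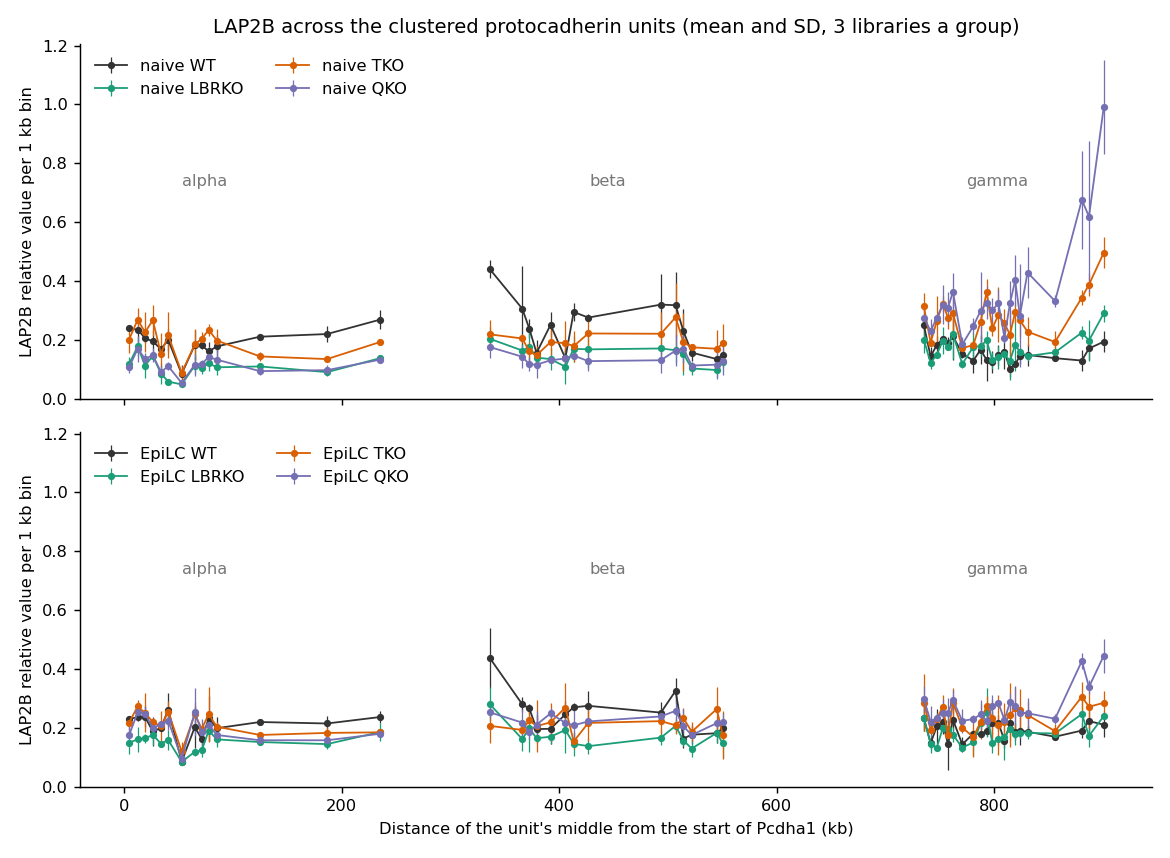
LAP2B relative value per bin of the 49 units along the alpha, beta and gamma clusters for each genotype in naive cells and EpiLCs, as group means with the SD of 3 libraries. Naive QKO and TKO rise toward the end of gamma, reaching 0.99 and 0.496 at Pcdhgc5 where WT is at 0.194, and QKO and LBRKO lie below WT over alpha.

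Over the alpha cluster the naive QKO change was about -1 on the log2 scale. Pcdha1 (ENSMUSG00000103442, chr18:37063237-37320714), which sums the cluster, had 0.204, 0.221 and 0.204 per bin in WT and 0.101, 0.118 and 0.103 in QKO. The groups did not overlap, and the gene fell by 0.96 ± 0.09 (limma adjusted p = 1.01e-14). The largest decreases of alpha units were at the 3' end too, in the stretches of Pcdhac1 (-1.17 ± 0.13) and Pcdha12 (-1.16 ± 0.11), and Pcdhac2, the last C-type gene of the cluster, changed by -1.0 ± 0.12 (limma adjusted p = 1.71e-10). The stretch of Pcdha1 itself changed by -1.09 ± 0.21, so the first stretch and the last 3 units fell most. The stretches of Pcdha2, Pcdha4, Pcdha8, Pcdha10 and Pcdha11 were not called.

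In the beta cluster most of the genes called lower were among the first. Pcdhb1 (ENSMUSG00000051663, chr18:37397991-37400578) had 0.472, 0.409 and 0.442 per bin in naive WT and 0.147, 0.164 and 0.217 in naive QKO. The groups did not overlap and the gene fell by 1.23 ± 0.25 (limma adjusted p = 1.59e-05). Among Pcdhb1 to Pcdhb8, 6 genes were called lower, the exceptions being Pcdhb4 (-0.41 ± 0.29) and Pcdhb6 (0.01 ± 0.30). Of the 6 units from Pcdhb11 to Pcdhb16, 2 were called, Pcdhb11 at -1.16 ± 0.26 and Pcdhb12 at -0.85 ± 0.28. The last beta gene, Pcdhb22, had 0.149, 0.213 and 0.204 per bin in WT and 0.0972, 0.144 and 0.164 in QKO, groups that overlapped, with a change of -0.46 ± 0.22 (limma adjusted p = 0.0553).

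**Figure D3:**
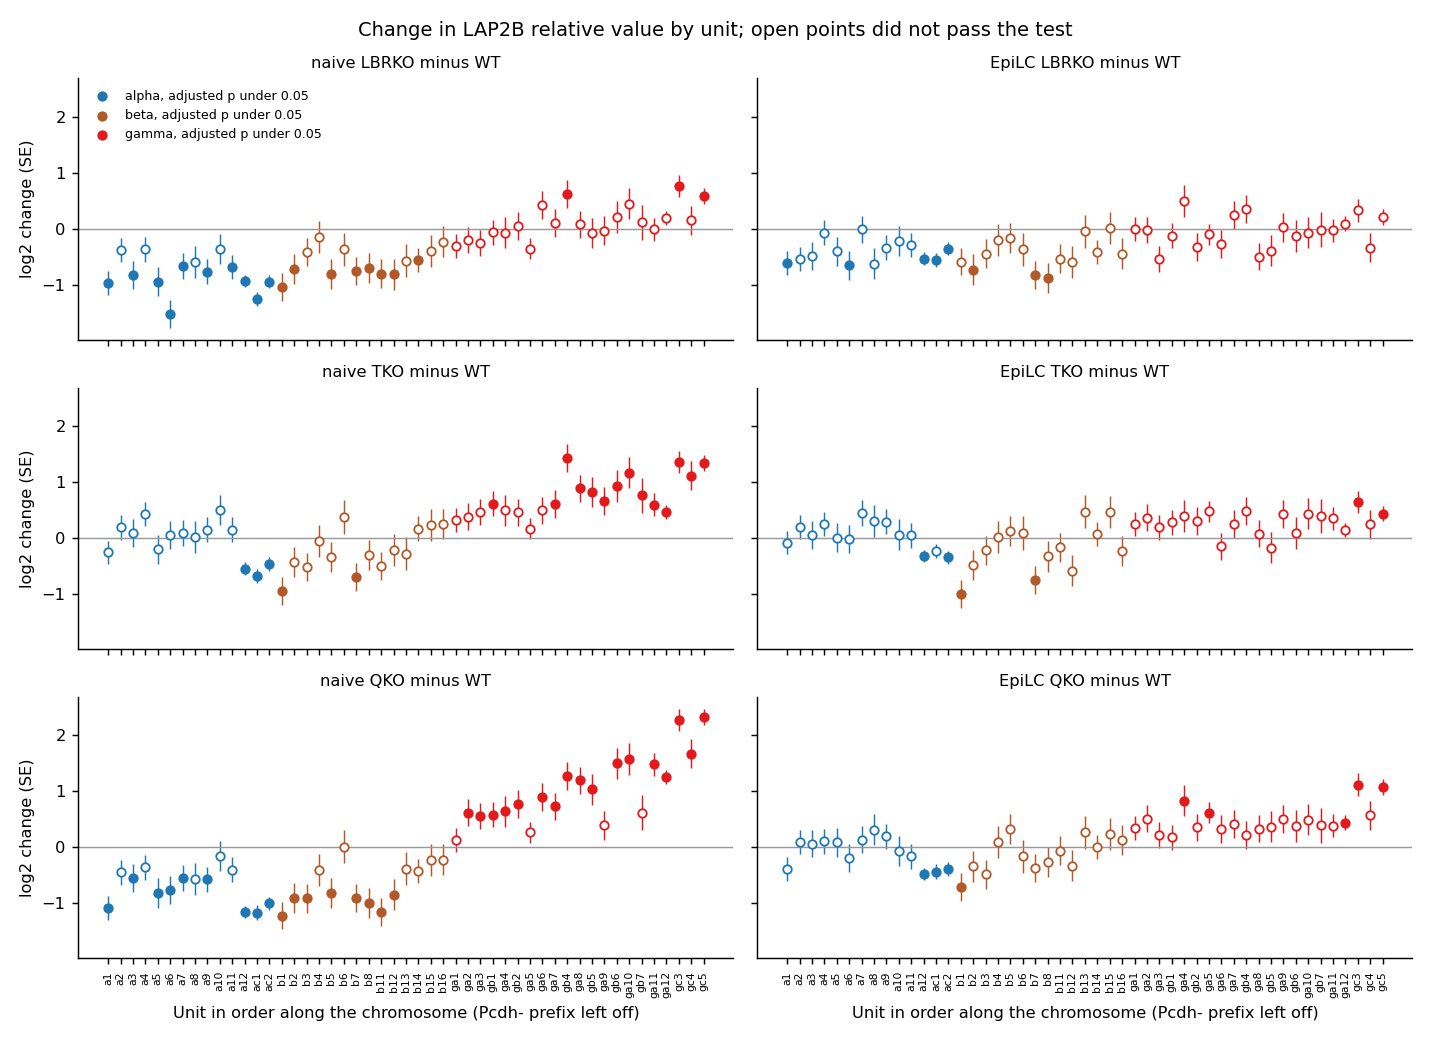
Log2 change in LAP2B relative value against WT for each of the 49 units in order along the clusters, for LBRKO, TKO and QKO in naive cells and EpiLCs, with error bars of 1 SE and called units filled. Gamma units climb toward Pcdhgc5 in naive QKO (2.33) and TKO (1.34), alpha units lie below 0 in naive LBRKO and QKO, and fewer units are called in EpiLCs.

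TKO cells, which lack the lamins and keep LBR, showed the gamma increase, and few of their alpha and beta units were called lower. In naive TKO, 14 of 21 gamma units were called higher, where 21.8% of all features were called higher and 27.5% lower. Their median change was 0.61 against -0.11 over all features. Pcdhgc5 had 0.531, 0.522 and 0.436 per bin in the TKO libraries, all above WT and all below QKO, a change of 1.34 ± 0.14 (limma adjusted p = 3.3e-11). Its rank in TKO was percentile 97.4 ± 1.62 (SD, n = 3), and the median gamma unit ranked at 72.2 in TKO and 65.1 in QKO. The stretches of Pcdhgb4 and Pcdhgc3 changed by 1.42 ± 0.25 and 1.35 ± 0.20.

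In naive TKO 3 of 14 alpha units were called lower, with 5 of the 14 changes negative and a median of 0.07, and 2 of 14 beta units were called lower, with 10 of the 14 negative and a median of -0.29. Units differ in length. Taken as deposited, with overlap, all 14 alpha members and 2 of 22 beta members were called lower. Pcdha1 had 0.166, 0.165 and 0.167 per bin in the TKO libraries, below every WT library and above every QKO library, and fell by 0.33 ± 0.09 (limma adjusted p = 0.00107). When libraries were instead divided by their mean over genes, this change was -0.004 (adjusted p = 0.973), so the call of alpha as a whole in TKO rested on the scaling. Over all 49 units that scaling gave 23 higher and 2 lower (92.0% higher) in place of 14 higher and 5 lower (73.7%). The units called lower in TKO that changed most were Pcdhb1 (-0.95 ± 0.25), Pcdhb7 (-0.69 ± 0.25) and the stretch of Pcdhac1 (-0.68 ± 0.13). The Pcdhb7 call was lost without naive WT replicate 1 or naive TKO replicate 2 or 3, and with division by the mean over genes (-0.39, adjusted p = 0.202).

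LBRKO cells, which keep the lamins, showed the alpha and beta decreases in naive cells, and few of their gamma units were called higher. LBRKO and TKO were each compared with WT and not with one another. In naive LBRKO, 10 of 14 alpha units and 8 of 14 beta units were called lower, where 27.6% of all features were called lower and 28.9% higher. Median changes were -0.79 in alpha and -0.64 in beta against 0.05 over all features. Pcdha1 had 0.103, 0.108 and 0.112 per bin in the LBRKO libraries, about the values of QKO, and fell by 0.96 ± 0.09 (limma adjusted p = 6.91e-14). The largest decreases were in the stretches of Pcdha6 (-1.52 ± 0.25) and Pcdhac1 (-1.26 ± 0.13) and in Pcdhb1 (-1.04 ± 0.25).

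In naive LBRKO 3 of 21 gamma units were called higher, the stretches of Pcdhgc3 (0.76 ± 0.20) and Pcdhgb4 (0.61 ± 0.25) and Pcdhgc5, and the median over the 21 was 0.08. The call of the Pcdhgb4 stretch did not hold with edgeR or DESeq2 (adjusted p = 0.147 and 0.0626), nor without naive WT replicate 2 or 3 or naive LBRKO replicate 3. Pcdhgc5 had 0.27, 0.279 and 0.323 per bin in the LBRKO libraries, above every WT library and below every TKO library, a change of 0.58 ± 0.14 (limma adjusted p = 0.000424). Pcdhga1 had 0.16, 0.18 and 0.2 in LBRKO, which overlapped WT, and changed by 0.18 ± 0.10 (limma adjusted p = 0.109). Taken as deposited, with the constant exons in every value, 20 of 22 gamma members were called higher in naive LBRKO and all 22 in naive TKO.

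QKO was also compared with each of the genotypes that share part of its losses, on the relative scale alone. Against naive LBRKO, from which QKO differs by the lamins and by its line of origin, 17 of 21 gamma units and 1 of 14 alpha units were called higher and no unit lower, where 21.9% of all features were called higher and 31.4% lower. Pcdhgc5 differed by 1.75 ± 0.14 and Pcdha1 by 0.00 ± 0.09 (adjusted p = 0.97). No beta unit was called, at a median of -0.10, and none had an unadjusted p below 0.05. Leaving out naive LBRKO replicate 1 or naive QKO replicate 2 gave 1 unit called lower.

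Against naive TKO, from which the QKO clone was derived, 13 of 14 alpha and 3 of 14 beta units were called lower and 4 of 21 gamma units higher, where 27.1% of all features were called lower and 26.4% higher. Pcdha1 was lower in QKO by -0.63 ± 0.09 (limma adjusted p = 1.35e-08), and the largest differences among alpha units were in the stretches of Pcdha1 (-0.83 ± 0.21), Pcdha6 (-0.81 ± 0.25) and Pcdha4 (-0.79 ± 0.22). That of Pcdha6 was not called without naive TKO replicate 2. The gamma units called were at the 3' end, led by Pcdhgc5 (0.98 ± 0.14), the stretch of Pcdhgc3 (0.92 ± 0.20) and the stretch of Pcdhga11 (0.88 ± 0.20). With libraries divided by the median gene of chromosome 18, the counts over all 49 units went from 4 higher and 16 lower (20.0% higher) to 6 higher and 8 lower (42.9%). Without naive QKO replicate 1 the count of lower units was 10.

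These comparisons share libraries, so the values of 1 member are best read together. Over naive WT, LBRKO, TKO and QKO the mean value per bin was 0.194 ± 0.0356, 0.290 ± 0.0284, 0.496 ± 0.0523 and 0.990 ± 0.160 for Pcdhgc5 (SD, n = 3), and neighbours in that order did not overlap. For Pcdha1 it was 0.210 ± 0.00976, 0.108 ± 0.00477, 0.166 ± 0.00113 and 0.108 ± 0.00944 (SD, n = 3), with LBRKO and QKO overlapping. For Pcdhb1 it was 0.441 ± 0.0316, 0.204 ± 0.0384, 0.219 ± 0.0498 and 0.176 ± 0.0363 (SD, n = 3), so the 3 knockouts overlapped one another below WT. The order of the knockouts depends on the scale. In the same order, deposited means of Pcdhgc5 were 11.3 ± 0.914, 19.7 ± 5.25, 19.3 ± 6.04 and 24.7 ± 5.96 (SD, n = 3). Those of Pcdha1 were 133 ± 27.1, 78 ± 16.8, 69.2 ± 18.2 and 28.4 ± 0.217 (SD, n = 3). Those of Pcdhb1 were 4.3 ± 0.361, 2.28 ± 0.657, 1.36 ± 0.113 and 0.727 ± 0.179 (SD, n = 3).

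**Figure D4:**
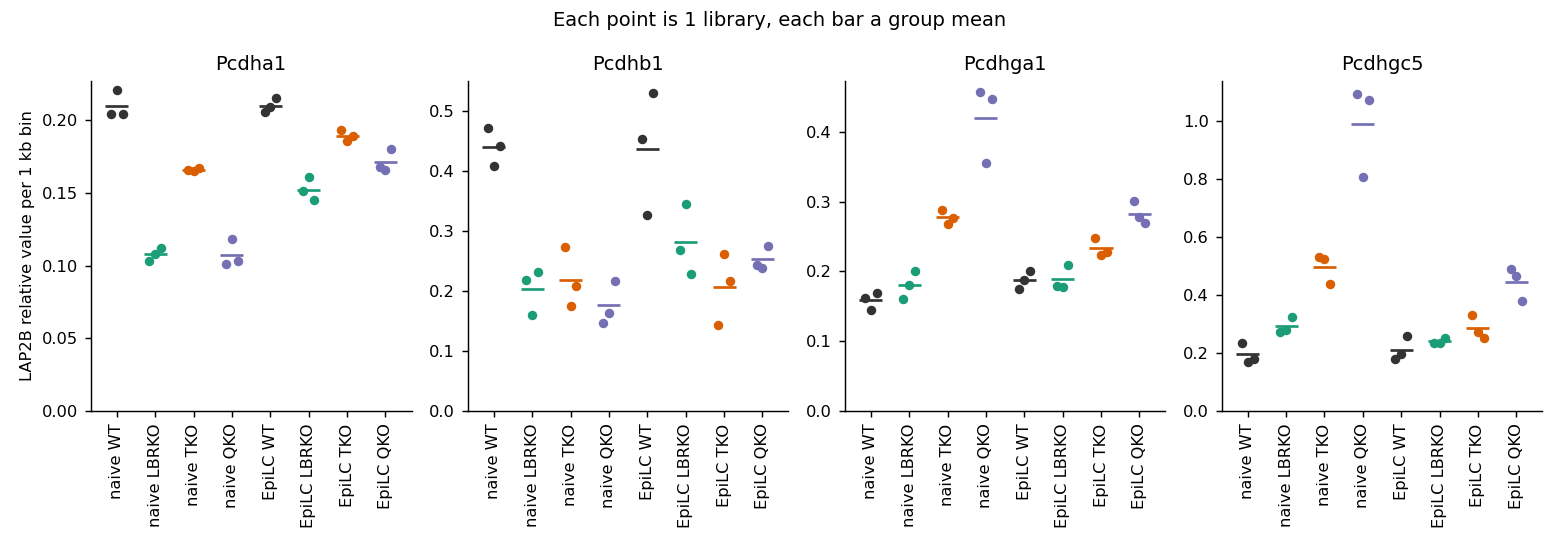
LAP2B relative value per bin of Pcdha1, Pcdhb1, Pcdhga1 and Pcdhgc5 in each of the 24 libraries, with bars at the mean of 3 libraries. In relative value, Pcdhgc5 climbs from WT through LBRKO and TKO to QKO in naive cells (0.806 to 1.09 in QKO), while Pcdha1 is lowest in LBRKO and QKO.

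In EpiLCs fewer units were called over the same clusters. The limit on EpiLC LAP2B signal given above applies to these counts. In EpiLC QKO, 5 of 21 gamma units were called higher, 3 of 14 alpha and 1 of 14 beta units lower, where 18.3% of all features were called higher and 17.8% lower. The gamma median was 0.39 against 0.02 over all features. Pcdhgc5 had 0.178, 0.196 and 0.258 per bin in EpiLC WT and 0.488, 0.466 and 0.38 in EpiLC QKO, without overlap, a change of 1.07 ± 0.14 (limma adjusted p = 3.4e-08). The stretches of Pcdhgc3 and Pcdhga4 changed by 1.12 ± 0.20 and 0.83 ± 0.28, the latter not called without EpiLC WT replicate 1 (0.39) or EpiLC QKO replicate 1 or 3. Pcdha1 had 0.206, 0.209 and 0.215 in WT and 0.168, 0.166 and 0.18 in QKO, also without overlap, and fell by 0.29 ± 0.09 (limma adjusted p = 0.00525), a change of -0.19 (adjusted p = 0.0685) when libraries were divided by their mean over genes. Without EpiLC WT replicate 1, or without EpiLC QKO replicate 1, 3 units were called higher and 2 lower. Dividing by the mean over genes gave 7 higher and 3 lower (70.0% higher) in place of 5 higher and 4 lower (55.6%).

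In EpiLC TKO, 2 gamma units (the stretch of Pcdhgc3 at 0.65 ± 0.20 and Pcdhgc5 at 0.44 ± 0.14) were called higher and 2 alpha and 2 beta units lower, where 8.68% of all features were called higher and 9.94% lower. Among the latter, Pcdhb1 had 0.143, 0.261 and 0.217 per bin against 0.454, 0.327 and 0.531 in WT, without overlap, and changed by -1.01 ± 0.25 (limma adjusted p = 0.00297). The Pcdhgc3 call was lost without EpiLC WT replicate 3 or EpiLC TKO replicate 1 or 2, and the Pcdhgc5 call without EpiLC WT replicate 1 or 2 or EpiLC TKO replicate 1. Without any 1 of the 6 libraries compared, 1 or 2 units were called lower in place of 4, and without EpiLC TKO replicate 1 no unit was called higher. The higher count was 1 without EpiLC WT replicate 1 or 2 or EpiLC TKO replicate 2. Dividing by the mean over genes gave 3 higher and 1 lower (75.0% higher) in place of 2 higher and 4 lower (33.3%).

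In EpiLC LBRKO, 5 alpha and 3 beta units were called lower and no unit higher, where 10.1% of all features were called lower and 13.3% higher. Median changes were -0.44 in alpha, -0.45 in beta and -0.03 in gamma against 0.01 over all features. In gamma 2 units had an unadjusted p below 0.05, and leaving out EpiLC WT replicate 2 gave 1 unit called higher. Pcdha1 had 0.151, 0.161 and 0.145 per bin in LBRKO, below every WT library, and fell by 0.46 ± 0.09 (limma adjusted p = 2.86e-05). The called beta genes were Pcdhb8 (-0.88 ± 0.27), Pcdhb7 (-0.83 ± 0.25) and Pcdhb2 (-0.73 ± 0.27), none of which was called without EpiLC LBRKO replicate 1. Pcdhb2 was not called on leaving out any of the EpiLC WT replicates or EpiLC LBRKO replicate 3 either, nor Pcdhb8 without EpiLC WT replicate 1, nor Pcdhb7 without EpiLC LBRKO replicate 3. The count of lower units was 5 without EpiLC WT replicate 3, 4 without EpiLC LBRKO replicate 3 and 2 without EpiLC LBRKO replicate 1.

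Within EpiLCs, QKO differed from LBRKO by 9 of 21 gamma units and 2 of 14 alpha units called higher and none lower, where 13.9% of all features were called higher and 16.4% lower. Pcdhgc5 differed by 0.87 ± 0.14, and the stretches of Pcdha8 and Pcdhgc4 by 0.94 ± 0.28 and 0.91 ± 0.26, the former not called without EpiLC QKO replicate 3 and the latter without EpiLC LBRKO replicate 2. That count of 11 units fell to 6 without EpiLC LBRKO replicate 2 and to 7 without EpiLC LBRKO replicate 1 or EpiLC QKO replicate 1. QKO differed from TKO in 1 unit, Pcdhgc5 (0.64 ± 0.14, limma adjusted p = 0.0107), where 0.932% of all features were called higher and 0.27% lower. That call was lost without EpiLC TKO replicate 2 or 3 or EpiLC QKO replicate 1 or 2.

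The effect of a genotype in EpiLCs minus its effect in naive cells was tested as an interaction. As EpiLC signal also lay outside lamina-associated domains in WT, the differences are of LAP2B signal. Whether effects on lamina contact differed between stages was not tested. For QKO, 9 gamma units were called lower, so that their increase was smaller in EpiLCs, and 5 alpha and 2 beta units were called higher, where 21% of all features were called lower and 24.8% higher. Pcdhgc5 differed by -1.25 ± 0.20 (limma adjusted p = 7.84e-07) and Pcdha1 by 0.67 ± 0.12 (limma adjusted p = 9.34e-06). For TKO, Pcdhgc5 was the 1 unit called (-0.91 ± 0.20), where 3.8% of all features were called lower and 5.77% higher, and the count was 2 without naive WT replicate 1 or 3, naive TKO replicate 3 or EpiLC TKO replicate 2. For LBRKO, 2 alpha units were called higher, the stretch of Pcdhac1 (0.70 ± 0.18) and Pcdhac2 (0.59 ± 0.17), where 10.2% of all features were called higher and 9.54% lower. The Pcdhac2 call was lost without EpiLC LBRKO replicate 2 (adjusted p = 0.0665) and with division by the mean over genes (adjusted p = 0.0618), either of which left 1 unit called.

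WT EpiLCs were also compared with WT naive cells. With LAP2B, 3 gamma units and 1 beta unit were called higher in EpiLCs and none lower, where 15.1% of all features were called higher and 17.1% lower. The gamma median was 0.30 against -0.06 over all features, 17 of 22 gamma members as deposited were called higher, and division by the mean over genes gave 9 units higher. The largest were the stretches of Pcdhgb6 (0.97 ± 0.28) and Pcdhga8 (0.74 ± 0.24) and Pcdhb6 (0.77 ± 0.30). The Pcdhb6 call was lost without naive WT replicate 1 or 2 or any 1 EpiLC WT replicate, with edgeR (adjusted p = 0.0583) and with a pseudocount of 0.01 (adjusted p = 0.0521). The Pcdhga8 call was lost without naive WT replicate 1 or EpiLC WT replicate 3 and with the groups compared alone (adjusted p = 0.0533), and the Pcdhgb6 call without naive WT replicate 2. The count was 2 without naive WT replicate 1 or 2 or EpiLC WT replicate 2 or 3, and leaving out EpiLC WT replicate 2 also gave 1 unit called lower. With LMNB1, the stretch of Pcdhga11 was called higher (0.73 ± 0.24, limma adjusted p = 0.0477), where 6.34% of all features were called higher and 7.08% lower, and it was lost on leaving out any library but naive WT LMNB1 replicate 2. With IGG no unit was called by limma, DESeq2 or edgeR, where 0.0724% of all features were called higher and 0.418% lower by limma, and 3 units had an unadjusted p below 0.05.

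A ratio of members within a library does not depend on how the libraries are scaled. The log2 ratio of Pcdhga1 to Pcdha1 per bin, gamma over alpha, was -0.33, -0.62 and -0.27 in naive WT. It was 0.64, 0.74 and 0.83 in naive LBRKO and 0.79, 0.70 and 0.73 in naive TKO. In naive QKO it was 2.17, 1.58 and 2.12, above all other groups. LBRKO and TKO thus had close mean ratios, 0.74 ± 0.0973 and 0.74 ± 0.0491 (SD, n = 3). Which cluster sets a ratio does depend on the scale. On the relative scale LBRKO had the lower Pcdha1 and TKO the higher Pcdhga1, whereas the deposited means of Pcdha1 were 78 ± 16.8 in LBRKO and 69.2 ± 18.2 in TKO and those of Pcdhga1 92.7 ± 25.9 and 81.1 ± 18.9 (SD, n = 3), each pair within its spread.

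In EpiLCs that ratio was -0.16 ± 0.0721 in WT and reached 0.30 ± 0.195 in LBRKO (SD, n = 3). It was 0.30 ± 0.0574 with TKO and 0.72 ± 0.134 with QKO (SD, n = 3). In each stage the knockout libraries all lay above WT. The naive and EpiLC LMNB1 libraries of WT gave -0.70 ± 0.300 and -0.51 ± 0.111, and the IGG libraries 0.31 ± 0.117 and 0.37 ± 0.144 (SD, n = 3). Every naive LBRKO, TKO and QKO library had a ratio above all naive WT libraries of LMNB1 and of IGG. The EpiLC LBRKO and TKO ratios overlapped those of EpiLC WT IGG (0.52, 0.24 and 0.34), whereas every EpiLC QKO ratio lay above them. The ratio of the last genes, Pcdhgc5 to Pcdhac2, gave -0.48, 1.07, 1.36 and 2.89 over naive WT, LBRKO, TKO and QKO.

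**Figure D5:**
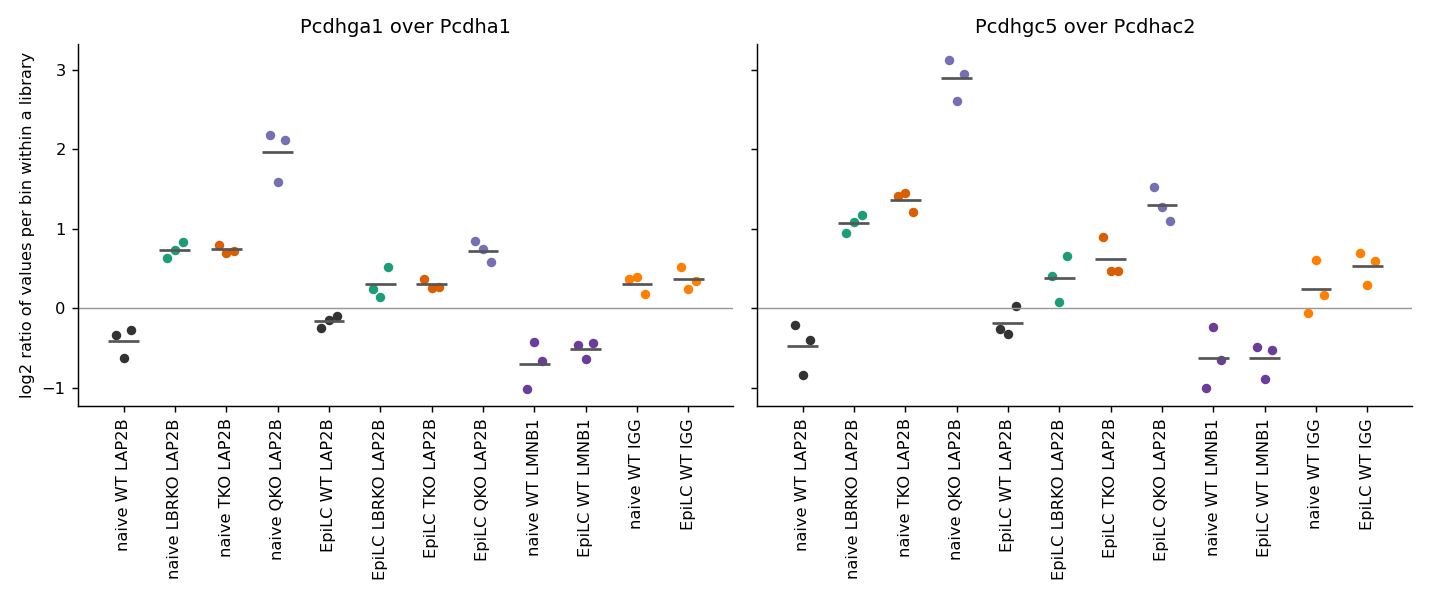
Log2 ratio of Pcdhga1 to Pcdha1 per bin within each of the 36 libraries, by group, with bars at the mean of 3. Naive QKO lies highest (1.58 to 2.17), naive LBRKO and TKO share a mean of 0.74, and WT is below 0 with LAP2B and LMNB1 but above 0 with IGG.

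The deposited values also carry a yeast spike-in factor, which moves whole libraries. On that scale the median feature shifted against WT by -1.23 in naive QKO, -0.64 in naive TKO and 0.21 in naive LBRKO, and by -0.75, -0.20 and 0.04 in EpiLC QKO, TKO and LBRKO. The decrease of alpha and beta in naive QKO then covered all 14 and all 14 units, with medians of -1.66 and -1.85, where 65.3% of all features were called lower and 10.2% higher. Gamma was split, with 2 units called higher (Pcdhgc5 and the stretch of Pcdhgc3), 3 lower (the stretches of Pcdhga1, Pcdhga5 and Pcdhga9) and a median of -0.24. The gamma increase of QKO is therefore an increase relative to other genes, which at Pcdhgc5 and the stretch of Pcdhgc3 was also an increase in deposited value. The Pcdhgc4 stretch changed by 0.50 ± 0.32 on the spike-in scale (limma adjusted p = 0.138).

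Pcdhgc5 had deposited values of 11.9, 11.6 and 10.2 in naive WT and 28.5, 17.8 and 27.7 in naive QKO, without overlap, and changed by 1.09 ± 0.25 on the spike-in scale (limma adjusted p = 1.78e-05). Pcdhga1 had 62.5, 75.2 and 72.9 in WT and 90.7, 59.7 and 87.5 in QKO, which overlapped, and changed by 0.15 ± 0.23 (limma adjusted p = 0.539). Pcdha1 had 112, 164 and 125 in WT and 28.5, 28.2 and 28.6 in QKO, and fell by 2.20 ± 0.23 (limma adjusted p = 3.82e-21).

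In the other naive genotypes the spike-in scale gave fewer gamma calls in TKO and fewer alpha and beta calls in LBRKO. In naive TKO, 3 gamma units were called higher and 5 alpha and 9 beta units lower, where 2.43% of all features were called higher and 47.3% lower. The lower count of 14 went to 7 without naive WT replicate 2 and 8 without naive TKO replicate 1, and the higher count to 0 without naive TKO replicate 2. In naive LBRKO, 3 gamma units were called higher, 6 alpha and 1 beta units lower, where 28.2% were called higher and 17.7% lower. The counts were 3 lower without naive WT replicate 2 and 1 higher without naive LBRKO replicate 3. With the spike-in factors applied to reads they turned to 12 higher and 2 lower, and the Pcdha1 change of -0.33 was not called (limma adjusted p = 0.139). The share of all features called was not counted for that setting.

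In EpiLC QKO, 12 alpha and 9 beta units were called lower on the spike-in scale and no gamma unit in either direction, with a gamma median of -0.44, where 55.4% of all features were called lower and 0.119% higher. That count of 21 was 12 without EpiLC QKO replicate 2 and 13 without EpiLC WT replicate 3, and with the spike-in factors applied to reads 2 units were called higher and 6 lower. In EpiLC TKO, 2 beta genes were called lower (Pcdhb1 at -1.28 ± 0.33 and Pcdhb7 at -1.0 ± 0.33), where 9.31% were called lower and 0.101% higher. That count ranged from 0 to 7 when each of the 6 libraries was left out in turn. In EpiLC LBRKO no unit was called by limma and 5 had an unadjusted p below 0.05, where 5.53% were called higher and 3.45% lower, and leaving out EpiLC WT replicate 2 gave 2 lower.

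The genes around the clusters placed these changes in their neighbourhood, on the relative scale unless stated. Diaph1, a formin that nucleates actin filaments, is the nearest protein-coding gene downstream of gamma. It changed in the same direction as gamma, by 1.15 in naive QKO (limma adjusted p = 4.76e-14), 0.58 in naive TKO and 0.42 in naive LBRKO. On the spike-in scale Diaph1 changed by -0.09, -0.04 and 0.61 in the same order (limma adjusted p = 0.745, 0.891 and 0.0233). Zmat2, a splicing factor upstream of alpha, changed by 0.43 in naive QKO (limma adjusted p = 0.0514). Slc25a2 and Taf7, which lie between beta and gamma, were listed at 0 in all 36 libraries. Pcdha4b, Gm38666 and Gm37388, annotated genes that run from alpha into gamma, changed by -0.02, -0.07 and -0.06 in naive QKO and by -0.57, -0.58 and -0.57 in naive LBRKO.

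Base composition differed between clusters. The median GC content of a unit was 41.9% in alpha, 46.8% in beta and 45.8% in gamma, and over the 49 units its Spearman correlation with the naive QKO change was 0.28. Within clusters it was 0.60 in alpha, -0.20 in beta and 0.44 in gamma, and 0.58 in gamma for the naive TKO change. The correlation of GC content with the naive WT IGG level over the 49 units was 0.49. These values are a description of neighbouring units, and the part of base composition in the changes was not tested.

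The same LAP2B comparison was read on the relative scale in 3 lists of related genes elsewhere in the genome. Their counts stand against shares of all features called higher and lower of 33.2% and 42.3% in naive QKO, 28.9% and 27.6% in naive LBRKO, 21.8% and 27.5% in naive TKO, and 18.3% and 17.8% in EpiLC QKO. Of 12 non-clustered protocadherins, which are adhesion genes encoded singly, 9 were called lower in naive QKO and 2 higher, with a median change of -1.57. The largest were Pcdh20 (-2.13 ± 0.19), Pcdh15 (-2.10 ± 0.10), Pcdh7 (-1.97 ± 0.10) and Pcdh9 (-1.92 ± 0.11). In naive LBRKO 9 were lower and 1 higher (median -1.13), and in naive TKO 9 lower and 1 higher (median -0.58).

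Of 21 genes for factors that act on the clusters, including CTCF, cohesin and chromatin silencers, 13 were called higher in naive QKO and 4 lower (median 0.84), led by the histone methyltransferase genes Ehmt2 (2.32 ± 0.16) and Setdb1 (2.28 ± 0.13) and the DNA methyltransferase gene Dnmt1 (2.25 ± 0.12). In naive LBRKO 16 were higher and 1 lower (median 0.40), and in naive TKO 11 higher and 4 lower (median 0.37). Of 15 genes for partners of the proteins, such as kinases and the WAVE complex, 7 were higher and 6 lower in naive QKO (median -0.10), with the kinase gene Pak2 (1.47 ± 0.11) and the WAVE subunit gene Brk1 (1.29 ± 0.17) higher and the WAVE subunit gene Nckap1 (-1.04 ± 0.14) lower. In naive LBRKO 11 were higher and none lower (median 0.85), and in naive TKO 4 were higher and 6 lower (median -0.09). In EpiLC QKO the counts were 2 higher and 8 lower of the non-clustered protocadherins, 14 higher and 1 lower of the regulators and 6 higher and 1 lower of the partners. On the spike-in scale naive QKO had 6 regulators higher and 10 lower (median -0.39) and 0 partners higher and 11 lower (median -1.34). Of the non-clustered protocadherins 0 were higher and 11 lower, where 10.2% of all features were called higher and 65.3% lower. In EpiLC QKO on that scale 0 of each list were higher, and 8 regulators, 11 partners and 10 non-clustered protocadherins were lower. There 0.119% of all features were called higher and 55.4% lower. These are LAP2B values of gene bodies and not transcript levels.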

How the data were processed

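The 58 members, the gene lists and the tests were chosen with earlier results of these data known. Per the labels and the study's methods, the authors aligned CUT&RUN reads to mm39 (Bowtie2 2.3.5.1, SAMtools 1.10, yeast spike-in to sacCer3), computed RPKM in 1 kb bins with deepTools, multiplied it by a yeast spike-in factor and deposited a signal per gene. How bins became gene values is not given in the sources used here. In 343 of 343 sets of genes lying in the same single bin the values were equal, and every value came out as a whole number of reads within 0.05 of a read, so reads were recovered. Coordinates and gene types were taken from GENCODE M39 on GRCm39, where 78131 genes were found. The extent of Pcdhb9 there did not match its value, so no level per bin is given for it.

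Libraries were scaled by their median gene (relative scale) or kept as deposited (spike-in scale). Stretch values are differences between overlapping members. The last members Pcdhac2 and Pcdhgc5 served as units themselves. Log2 values were taken after adding 0.1 of the table's median gene, the lowest 0.1 of features by mean were left out, and 70414 features (70381 genes and 33 stretches) were fitted with limma 3.58.1 (R 4.3.3), with 1 model over the 8 LAP2B groups, trended empirical Bayes variance and Benjamini-Hochberg adjustment. The fit was also run on simulated counts with known changes, and the outcome is not reported here. Fold changes understate those of low features. Alternatives were other pseudocounts, no filter, other scalings, spike-in factors applied to reads, the groups compared alone, protein-coding genes alone, a replicate block, edgeR 4.0.16 and DESeq2 1.42.0 on recovered reads, and each library left out. Named with values were the first and last member of each subfamily, up to 3 units per direction and comparison by size among those called, neighbouring genes and up to 4 genes of each list, of which some are not reported here. Other genes named were chosen after their values were seen. The tables of repeats were not used, and no sequence of the clusters is reported here.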

Additional observations from a re-analysis of the deposited data

Results flagged for a closer look

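Genotype effects on LAP2B that differed between EpiLCs and naive cells by the interaction test are given here as the log2 effect in EpiLCs minus that in naive cells, on the relative scale, with the effects in naive cells and EpiLCs after it. They are differences in LAP2B signal, and whether effects on lamina contact differed between stages was not tested.

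In the alpha cluster every called difference was positive, since the naive decrease was larger. For LBRKO it was 0.70 at the Pcdhac1 stretch (-1.26 and -0.56), 0.59 at Pcdhac2 (-0.95 and -0.36) and 0.50 at Pcdha1 (-0.96 and -0.46). That of Pcdhac2 was not called without EpiLC LBRKO replicate 2 (0.46, limma adjusted p = 0.0665) or with division by the mean over genes (0.43, limma adjusted p = 0.0618). For QKO it was 0.73 at the Pcdhac1 stretch (-1.17 and -0.44), 0.62 at Pcdhac2 (-1.0 and -0.39) and 0.68 at the Pcdha12 stretch (-1.16 and -0.48). It was 0.67 at Pcdha1 (-0.96 and -0.29), which sums the alpha cluster. At the stretches of Pcdha5 and Pcdha9 the QKO difference was 0.90 and 0.76, with effects of 0.08 and 0.19 in EpiLCs. That of the Pcdha5 stretch had an adjusted p of 0.0448 by limma and was lost with edgeR (adjusted p = 0.0902) and DESeq2 (adjusted p = 0.107), and on leaving out any of 11 of the 12 libraries compared.

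In the beta cluster the QKO difference was 1.14 at Pcdhb5 (-0.81 and 0.33) and 1.1 at Pcdhb11 (-1.16 and -0.06). The latter was not called without naive WT replicate 3.

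In the gamma cluster every called difference was negative, since the naive increase was larger. For TKO it was -0.91 at Pcdhgc5 (1.34 and 0.44) and -0.50 at Pcdhga1 (0.81 and 0.31). The latter was not called without naive WT replicate 2 or EpiLC WT replicate 3. For QKO it was -1.25 at Pcdhgc5 (2.33 and 1.07), -1.15 at the Pcdhgc3 stretch (2.27 and 1.12), -1.10 at the Pcdhgc4 stretch (1.67 and 0.57) and -0.81 at Pcdhga1 (1.40 and 0.59), which sums the gamma cluster. Among the other gamma stretches the QKO difference was -1.11 for Pcdhgb6, -1.09 for Pcdhga10, -1.09 for Pcdhga11, -1.06 for Pcdhgb4, -0.87 for Pcdhga8 and -0.82 for Pcdhga12, with naive effects of 1.20 to 1.57 and EpiLC effects of 0.21 to 0.49. That of Pcdhgb6 was not called without naive WT replicate 2 or naive QKO replicate 1 or 2.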

How the results depend on the processing

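Within each scale none of the called changes that were rerun turned sign under any alternative. Those rerun were the up to 3 largest called units per direction and comparison, and Pcdha1 and Pcdhga1 where called. Other named changes, some of them near 0, were not rerun. Between the relative and the spike-in scale signs did turn, as in the gamma median of naive QKO (0.90 and -0.24) and of EpiLC QKO (0.39 and -0.44). The balance of higher and lower calls turned in naive LBRKO on the spike-in scale with factors applied to reads (12 and 2 in place of 3 and 7) and in EpiLC TKO with division by the mean over genes (3 and 1 in place of 2 and 4) or without EpiLC WT or TKO replicate 3 (2 and 1). It also turned with members as deposited in EpiLC TKO (22 and 8) and in naive QKO against TKO (22 and 18 in place of 4 and 16), and in the QKO interaction without naive QKO replicate 1 (7 and 6 in place of 7 and 9). Counts of units called higher and lower against WT in naive QKO, TKO and LBRKO on the relative scale stayed within 1.5 times under DESeq2, edgeR, both other pseudocounts, no filter, protein-coding genes alone, the replicate block and each library left out, and the exceptions are given here. With members as deposited in place of units, which repeats the constant exons, the higher counts were 22 in naive TKO, 20 in naive LBRKO, 22 in EpiLC QKO and 22 in EpiLC TKO, and the lower counts 16 in naive TKO, 18 in EpiLC LBRKO, 15 in EpiLC QKO and 8 in EpiLC TKO. They were 22 higher for naive QKO against TKO, 24 and 7 higher for EpiLC QKO against LBRKO and TKO, 18 and 0 higher for the WT stage difference with LAP2B and LMNB1, 14 higher for the LBRKO interaction, 22 lower for the TKO interaction, and 16 higher and 22 lower for the QKO interaction. On the spike-in scale they were 10 higher and 16 lower in naive LBRKO, 12 higher in naive QKO and 26 lower in naive TKO.

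Dividing by the mean over genes gave 23 higher and 2 lower in naive TKO, 1 lower in EpiLC TKO, 19 higher for EpiLC QKO against LBRKO, 9 and 2 higher for the WT stage difference with LAP2B and LMNB1, 1 higher for the LBRKO interaction and 6 lower for the TKO interaction. The chromosome 18 median gave 8 lower for naive QKO against TKO. Fitting the groups compared alone gave 21 and 2 higher for EpiLC QKO against LBRKO and TKO, 2 higher for the WT stage difference with LAP2B and, on the spike-in scale, 1 higher and 9 lower in naive TKO and 0 lower in EpiLC TKO. Spike-in factors applied to reads gave, higher and lower, 12 and 2 in naive LBRKO, 1 and 24 in naive TKO and 2 and 6 in EpiLC QKO, with 6 higher in naive QKO, 6 higher in EpiLC LBRKO and 1 lower in EpiLC TKO. edgeR gave 10 lower for naive QKO against TKO, 2 higher for the WT stage difference with LAP2B and 4 higher for the LBRKO interaction. DESeq2 gave 2 higher for the WT stage difference with LMNB1 and 3 lower for the TKO interaction. Protein-coding genes alone gave 4 higher for the LBRKO interaction, a pseudocount of 1 gave 1 lower in EpiLC LBRKO on the spike-in scale, and no filter gave 0 for LMNB1. The cause of these shifts was not tested. Shares of all features called were not counted under the alternatives, so these counts have no such share to be read against.

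With each library left out in turn, counts on the relative scale ranged from 0 to 1 higher and 2 to 8 lower in EpiLC LBRKO, 0 to 2 higher and 1 to 2 lower in EpiLC TKO, and 3 to 6 higher and 2 to 4 lower in EpiLC QKO. For QKO against LBRKO they ranged from 6 to 13 higher in EpiLCs and 0 to 1 lower in naive cells, and against TKO from 0 to 1 higher in EpiLCs and 10 to 19 lower in naive cells. The WT stage difference ranged from 2 to 5 higher and 0 to 1 lower with LAP2B and 0 to 1 higher with LMNB1, the LBRKO interaction from 1 to 3 higher and the TKO interaction from 1 to 2 lower. On the spike-in scale the ranges were 1 to 4 higher and 3 to 9 lower in naive LBRKO, 0 to 3 higher and 7 to 15 lower in naive TKO, 0 to 2 lower in EpiLC LBRKO, 0 to 7 lower in EpiLC TKO and 12 to 28 lower in EpiLC QKO. Naive QKO ranged from 12 to 17 higher and 14 to 18 lower on the relative scale.

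Nothing in the labels says that replicate numbers mark a shared batch. Deviations of same-numbered libraries correlated between -0.25 and 0.18, and in no comparison was every pair over 0.1, so the numbers were not treated as pairs. With the replicate block the LMNB1 count went from 1 to 0, the stretch of Pcdhga11 having an adjusted p of 0.0723, and no other count moved beyond 1.5 times. Depth limits calls of single units, which held as few as 14 reads in a LAP2B library.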
